A study of Homo sapiens with 60 samples.

Results

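The data described here are the RAD21 and PDS5A binding sites of PC9 METTL7A rescue cells, compared between untreated cells and cells kept under osimertinib. The global irreproducible discovery rate (IDR) of a peak estimates the share of irreproducible peaks among those ranked at least as high. Members were the peaks on chromosomes 1 to 22 whose global IDR was at most 0.05. This gave 44846 peaks of the 93373 RAD21 and PDS5A peaks that met the same rule in all 3 genotypes, from 8 of the 60 samples of the series. The 4 lists held 109010 peaks before the IDR limit, and these are called deposited peaks below.

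The series profiled chromatin proteins in PC9, a human lung adenocarcinoma line with a mutant epidermal growth factor receptor (EGFR), with 5 antibodies including an IgG control. It used CUT&RUN, in which an antibody guides a nuclease to cut out the DNA beside the bound protein. Wild-type PC9 cells, METTL7A knockout cells and rescue cells were each taken untreated and osimertinib-treated, with 2 replicates of each antibody. Rescue cells are the knockout cells made to overexpress METTL7A, a methyltransferase-like protein, with MYC and FLAG tags, so both rescue groups carry the knockout and the added tagged gene. Osimertinib, an inhibitor of mutant EGFR, was raised from a starting dose of 100 nM over 6 to 8 weeks, so the treated cells had lived through a long escalation. Whether a line was 1 clone is not given in the sources used here, nor whether replicates came from separate cultures. In bulk samples of this kind a change in some of the cells and a change in every cell cannot be told apart, and the peak lists hold no measure of METTL7A itself.

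Cohesin is a ring of protein subunits that holds sister chromatids together and extrudes loops of DNA. RAD21 is the core subunit that closes the ring, and its cleavage opens it. PDS5A binds the ring, helps WAPL to release it from DNA and takes part in stopping loops at sites bound by CTCF, so both proteins are usually found at the same loop anchors and at active promoters and enhancers.

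Under osimertinib the rescue cells had more RAD21 peaks and fewer PDS5A peaks. RAD21 peaks numbered 8993 untreated and 10864 treated, a ratio of 1.21, and PDS5A peaks numbered 13746 untreated and 11243 treated, a ratio of 0.818. The DNA covered by these peaks moved the same way, from 10.6 to 13.1 Mb for RAD21 and from 17.0 to 14.7 Mb for PDS5A. Each list joins both replicates, so a ratio of 2 lists has no replicate error and was given no test. Among all deposited peaks the RAD21 ratio was 1.06 and the PDS5A ratio 0.811. The IgG control of the same cells had 1036 deposited peaks untreated and 884 treated, of which 10 and 31 met the IDR limit. Peak strength is given below as the authors' −log10 p of each peak in each replicate. The first replicate was the stronger at 79.6% and 84.4% of deposited RAD21 peaks (untreated, treated) and at 62.0% and 92.7% of deposited PDS5A peaks, so the imbalance between PDS5A replicates was larger in treated cells.

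Most RAD21 sites were found in both conditions. Of the 8993 untreated RAD21 peaks, 6911 overlapped a treated RAD21 peak by at least 1 bp (76.9%, 95% Wilson interval 76.0 to 77.7) and 2082 did not, so the percentage lost was 23.2. Of the 10864 treated RAD21 peaks, 3957 had no untreated counterpart, so the percentage gained was 36.4. PDS5A showed the opposite balance. Of 13746 untreated PDS5A peaks, 8837 were kept (64.3%, interval 63.5 to 65.1) and 4909 were lost, which is 35.7 percent. Of 11243 treated PDS5A peaks, 2414 were gained, which is 21.5 percent. These intervals, like all those below, cover counting error only.

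Few of these changes were a site present in one condition and without a deposited peak in the other. Every deposited peak had a value in both replicates. A peak called in 1 replicate alone would not be among them, so a missing deposited peak does not show that the protein was absent. Among lost RAD21 peaks, 1646 of 2082 still had a deposited RAD21 peak in treated cells that missed the IDR limit, and 436 had none, which is 4.85 percent of the untreated list. Among gained RAD21 peaks 3388 of 3957 had such a counterpart in untreated cells, and 569 had none, or 5.24 percent of the treated list. For PDS5A, 1164 lost peaks (8.47 percent of the untreated list) and 145 gained peaks (1.29 percent of the treated list) had no deposited counterpart. By that count 569 RAD21 gains stood against 436 RAD21 losses, and 145 PDS5A gains against 1164 PDS5A losses.

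**Figure D1:**
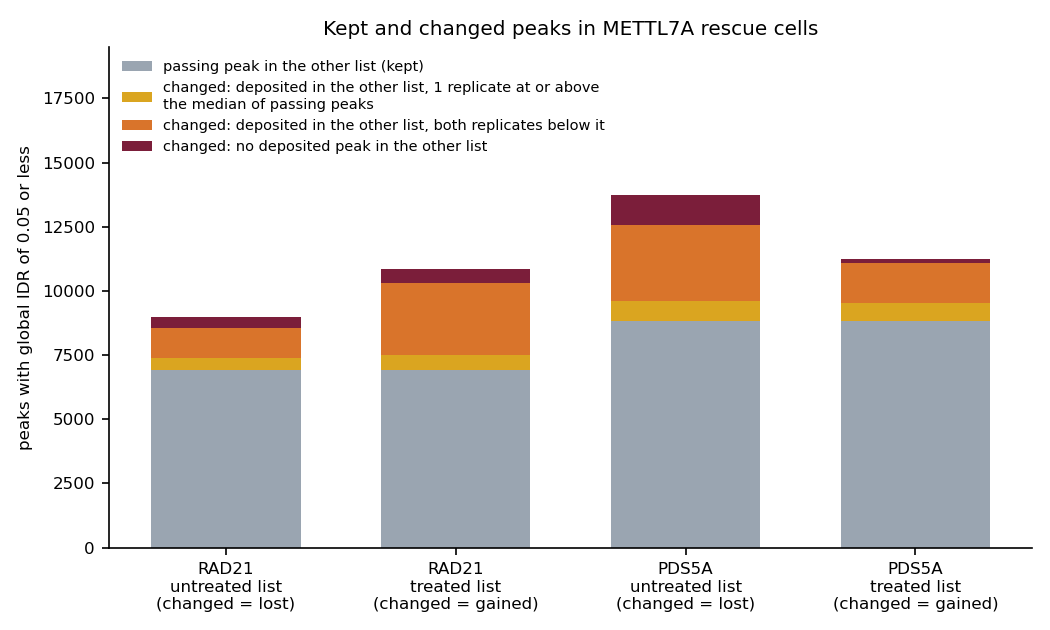
Peaks of each list (y axis, number of peaks that met the IDR limit) split by what lies at the same site in the list of the other condition. Grey peaks were kept, and the dark red part without any deposited counterpart is the smaller share of each list, from 145 PDS5A peaks gained to 1164 PDS5A peaks lost.

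The strongest changed sites were mostly sites where 1 replicate of the other condition stayed strong and the other was weak. The rule itself favours this form, since a counterpart strong in both replicates would usually meet the IDR limit and count as kept. The RAD21 peak at chr2:222435747-222439139 (GRCh37, as all positions here) had −log10 p of 255 and 219 in untreated cells and of 260.0 and 7.28 in treated cells, and counted as lost. At chr2:223182754-223184905 RAD21 had 334 and 193 untreated and 258 and 10.6 treated. At chr5:57753916-57757069 RAD21 had 171 and 173 untreated and 212 and 4.30 treated. In these 3 sites the first treated replicate lay inside or above the untreated range and only the second was low.

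The strongest gained RAD21 sites had the same form in reverse. At chr21:9825454-9827545 RAD21 had 7.85 and 116 untreated and 207 and 248 treated, and IgG peaks were deposited there in both conditions. At chr1:204041925-204045653 RAD21 had 88.8 and 4.60 untreated and 188 and 142 treated. At chr3:177076776-177078586 it had 163 and 10.1 untreated and 139 and 134 treated, so the first untreated replicate was above both treated ones. The groups did not overlap at the first and second of these sites, and they overlapped at chr3:177076776-177078586.

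PDS5A had this form at 4 of its 6 strongest changed sites. The PDS5A peak at chr17:48276954-48278837 had 260 and 220.3 untreated and 233 and 7.19 treated. At chr1:113614888-113616783 it had 210.2 and 232 untreated and 271 and 3.63 treated, with an IgG peak deposited there in treated cells. Both lost their place through the second treated replicate, while the other lost site, chr22:30651544-30654369, was weaker in both treated replicates, with 223 and 181 untreated against 51.3 and 8.00 treated. Its first treated value was still above the median of the IDR-passing peaks (39.7), the measure used for the counts below. Among gained sites, chr15:89900824-89903081 had 206 and 5.03 untreated and 294 and 206 treated. At chr17:39803584-39805298 PDS5A had 5.86 and 145 untreated and 278 and 144 treated. The conditions overlapped at the chromosome 17 site and lay side by side at the chromosome 15 site, where the first untreated and second treated replicates were both 206. The other departure was chr1:154529664-154532767, where PDS5A was weak in both untreated replicates (5.86 and 6.53) and strong in both treated ones (308 and 192). RAD21 was kept at this site, with 50.1 and 37.8 untreated and 64.0 and 45.4 at the stronger of 2 treated peaks.

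**Figure D2:**
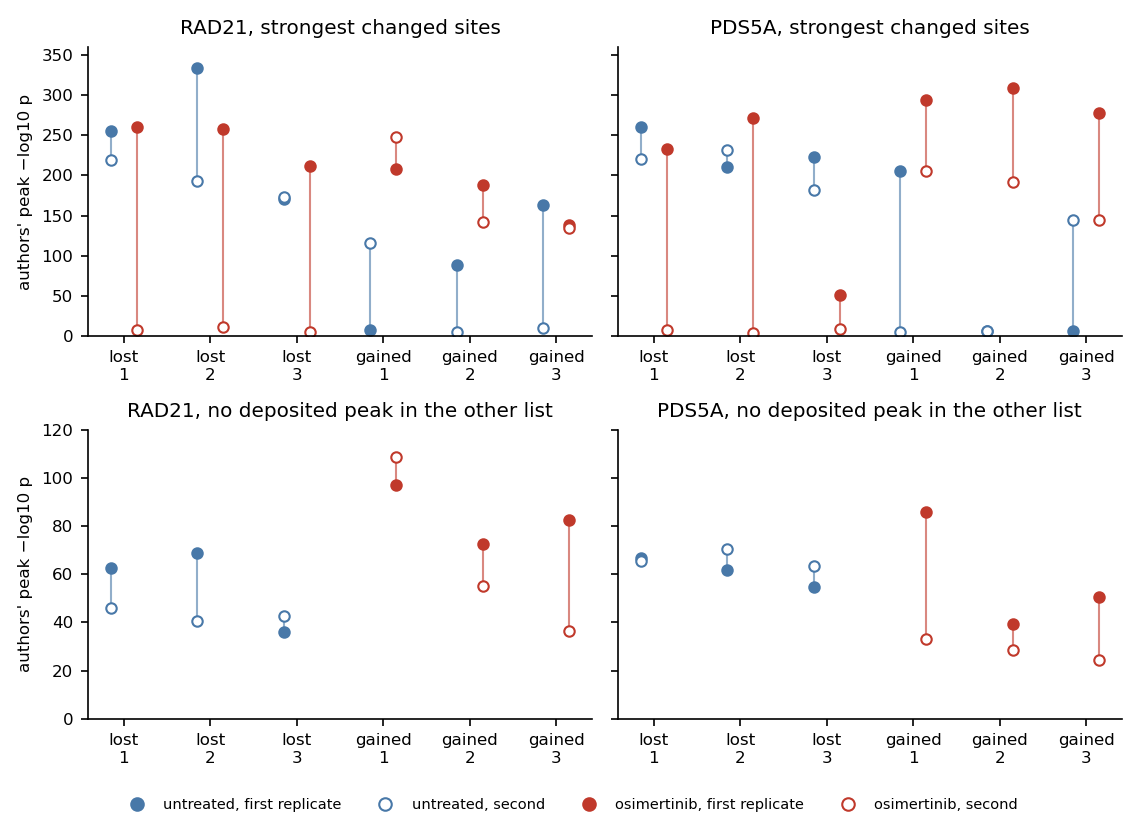
Authors' −log10 p (y axis) of both replicates in untreated (blue) and osimertinib-treated (red) cells at the 3 strongest lost and 3 strongest gained sites of RAD21 (left) and PDS5A (right), with filled points for the first and open points for the second replicate. In the upper row long lines join a strong and a weak replicate of the same condition, as at the first lost RAD21 site (260.0 and 7.28 treated). In the lower row the other condition has no deposited peak and so no point.

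Across the 100 strongest changed peaks of each kind, the deposited counterpart reached the median of the IDR-passing peaks in exactly 1 replicate at 88 lost and 77 gained RAD21 peaks and at 94 lost and 93 gained PDS5A peaks. Over all changed peaks that state was less common, at 488 of 2082 lost RAD21 peaks, 578 of 3957 gained RAD21 peaks, 776 of 4909 lost PDS5A peaks and 717 of 2414 gained PDS5A peaks. No counterpart of a changed peak reached the medians in both replicates. The weak replicate was mostly the second in treated cells, at 378 of the 488 lost RAD21 peaks and 586 of the 776 lost PDS5A peaks. In untreated cells it was the second at 295 and the first at 283 of the gained RAD21 peaks. Most other changed peaks had a counterpart weaker than these medians in both replicates, namely 1158 lost and 2810 gained RAD21 peaks and 2969 lost and 1552 gained PDS5A peaks.

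In most of these sets the weak replicate was low in −log10 p and not in width. Weak here means below the median of the IDR-passing peaks for that replicate, and not below the other replicate. At lost PDS5A peaks whose first treated replicate was weak, the medians were 20.50 for the first and 20.20 for the second. The weak replicate had the lower median in the other sets, as at lost RAD21 peaks whose first treated replicate was weak (15.01 against 23.31). Where the second treated RAD21 replicate was the weak one, its own peaks had a median −log10 p of 7.28 and a median width of 1630 bp, against 50.4 and 1794 bp for the first replicate of the same peaks. Other treated RAD21 peaks with second-replicate values in the same range had a median width of 444 bp. For PDS5A the second treated replicate had 6.52 and 1740 bp at these peaks, against 56.2 and 1992 bp for the first, and other PDS5A peaks of like value were 453 bp wide. The gap was small where the second untreated RAD21 replicate was weak, at 536 bp against 466 bp, and where the first treated PDS5A replicate was weak, at 1034 bp against 902 bp. At chr2:222435747-222439139, for example, the peak of the second treated RAD21 replicate spanned 3848 bp at a −log10 p of 7.28. The lists do not show how the peak and p of each replicate were chosen, so a low value in a wide peak need not mean little signal there. The part of such peaks in the gains and losses was not tested.

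Sites with no deposited peak at all in the other condition were weaker and narrower. The strongest such gained RAD21 site, chr7:61968826-61969189, had 97.2 and 109 in treated cells, but IgG peaks were deposited there in both conditions and no PDS5A peak in either. At chr13:49875229-49875726 RAD21 had 72.4 and 55.3 treated, and PDS5A was present in both conditions, with 35.2 and 24.4 untreated and 68.6 and 40.8 treated. At chr10:43700342-43701020 RAD21 had 82.7 and 36.3 treated, with PDS5A at 44.5 and 8.44 untreated and 38.0 and 23.3 treated. PDS5A was kept at the chromosome 13 site and missed the IDR limit in untreated cells at the chromosome 10 site, where it counted as gained too.

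The 3 strongest lost RAD21 sites of this kind still had a deposited PDS5A peak in treated cells, which met the IDR limit at 2 of them. At chr19:39930631-39931506 RAD21 had 62.8 and 46.0 untreated and no deposited treated peak, and PDS5A had 41.0 and 32.4 untreated and 29.8 and 12.8 treated. At chr2:38542865-38543476 RAD21 had 68.9 and 40.5 untreated, with PDS5A at 46.6 and 23.4 untreated and, outside the limit, 31.6 and 7.67 treated. At chr4:82327109-82327647 RAD21 had 36.0 and 42.7 untreated, with PDS5A at 48.5 and 39.0 untreated and 21.9 and 16.2 treated. PDS5A was lower in both treated replicates than in both untreated ones at the chromosome 19 and chromosome 4 sites.

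PDS5A sites of this kind mostly had a weak deposited RAD21 peak or none. The lost PDS5A peak at chr7:48338905-48339619 had 66.8 and 65.5 untreated, and that at chr1:212955746-212956591 had 54.7 and 63.5. RAD21 at both was weak in untreated cells (16.1 and 7.71 at the first, 9.94 and 5.01 at the second) and had no deposited peak in treated cells. At chr11:42545739-42547321 PDS5A had 61.6 and 70.4 untreated and no deposited treated peak, whereas RAD21 was kept, with 26.8 and 19.7 untreated and 35.7 and 12.6 treated. The gained PDS5A peaks at chr1:32129366-32129716 (86.1 and 33.1 treated), chr15:79043469-79043832 (39.5 and 28.4) and chr19:54671952-54672492 (50.5 and 24.5) had no untreated RAD21 peak, and the first had a weak treated one (13.0 and 4.39). Of these 12 sites 10 had no deposited H3K27Ac peak, the acetylation found at active promoters and enhancers, in either condition. H3K27Ac met the IDR limit in both conditions at 7 of the 12 strongest changed sites described before them.

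The counts over all peaks of this kind were alike. PDS5A was deposited in both conditions at 423 of 569 RAD21 peaks gained without a counterpart (74.3%, interval 70.6 to 77.8) and at 277 of 436 lost ones (63.5%, interval 58.9 to 67.9), against 98.0% of kept RAD21 peaks and 95.5% of all treated and 94.6% of all untreated ones. Of the 569, 9 lay on a PDS5A peak that was gained without a counterpart, and 16 on one that was lost without a counterpart. Of the 436, 44 lay on a PDS5A peak lost without a counterpart and 1 on one gained without. Over all 10864 treated RAD21 peaks the counts were 24 and 83, and over all 8993 untreated ones 144 and 6, in the same orders. RAD21 in turn was deposited in neither condition at 522 of 1164 PDS5A peaks lost without a counterpart (44.8%, interval 42.0 to 47.7). The same held at 61 of 145 gained ones (42.1%, interval 34.3 to 50.2), against 4.75% of kept PDS5A peaks. Over all PDS5A peaks it held at 9.76% of untreated and 5.35% of treated ones. RAD21 was deposited in both conditions at 266 of the 1164, in untreated cells only at 266 and in treated cells only at 110. In the same order the counts were 38, 7 and 39 of the 145. PDS5A was thus deposited throughout at most of these RAD21 changes, though at a smaller share than over all RAD21 peaks. Median widths were 542 and 576 bp for RAD21 and PDS5A gains and 576 and 719 bp for RAD21 and PDS5A losses, against 1102 bp for kept treated RAD21 peaks and 1175 bp for kept PDS5A peaks. Deposited IgG peaks lay under 8 of the 569 RAD21 gains, 2 of the 1164 PDS5A losses and none of the others.

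At most sites where 1 of the proteins changed, the other was kept or had no peak within the limit in either list. When the 4 lists were merged, the 18614 joined sites included 5967 that changed for RAD21 and 7288 that changed for PDS5A, and 1923 changed for both. That is 32.2% of the sites with a RAD21 change and 26.4% of those with a PDS5A change, and PDS5A changed at 24.3% of the sites where RAD21 was kept. Over all joined sites, with or without the other protein, 39.2% changed for PDS5A and 32.1% for RAD21. PDS5A had no peak within the limit at 2535 of the joined sites, and RAD21 had none at 5807. These included 1324 RAD21 gains, 624 RAD21 losses, 944 PDS5A gains and 2756 PDS5A losses. Such sites could not change for both, so the shares above do not show how often changes coincided where both proteins had peaks. Where both changed, they changed in the same direction at 1193 sites (62.0%, interval 59.9 to 64.2) and in opposite directions at 730. A RAD21 gain lay on a gained PDS5A peak in 633 of 3957 cases (16.0%, interval 14.9 to 17.2) and on a lost one in 601 (15.2%, interval 14.1 to 16.3). A RAD21 loss lay on a lost PDS5A peak in 573 of 2082 cases (27.5%, interval 25.7 to 29.5) and on a gained one in 145 (6.96%, interval 5.95 to 8.14). With lists shortened to equal length by strength, 23.0% of RAD21 gains and 18.8% of RAD21 losses lay on a like PDS5A change, so which of the shares was larger turned with list length. Since PDS5A lost more peaks than it gained, these shares are read against the PDS5A lists. Of RAD21 gains on a treated PDS5A peak, 31.2% (interval 29.2 to 33.2) had a gained one, against 13.1% of kept RAD21 peaks and 21.5 percent of all treated PDS5A peaks. Of RAD21 losses on an untreated PDS5A peak, 43.5% (interval 40.9 to 46.2) had a lost one, against 17.7% of kept RAD21 peaks and 35.7 percent of all untreated PDS5A peaks. The nearer reference is PDS5A peaks with a RAD21 peak in the same condition. Of these, 18.15% of treated ones were gained and 22.59% of untreated ones were lost. Over peaks of all strengths, changes in the opposite direction were also more common at RAD21 gains than at kept RAD21 peaks. Of RAD21 gains on an untreated PDS5A peak, 30.1% (interval 28.1 to 32.1) had a lost one, against 17.7% of kept peaks. Of RAD21 losses on a treated PDS5A peak, 16.4% (interval 14.1 to 19.03) had a gained one, against 13.1% of kept peaks. Both shares were below those over all PDS5A peaks, at 35.7 percent of untreated peaks lost and 21.5 percent of treated peaks gained. With each RAD21 list divided into equal parts by strength, the gain and kept intervals overlapped in the lowest part (35.45% against 31.46%). Gains were higher in the middle part (25.69% against 20.50%) and the highest (20.45% against 10.88%). RAD21 losses stood at 13.64% against 17.45% of kept peaks in the lowest part, and at 15.02% against 15.90% in the middle part. In both parts these intervals overlapped, and RAD21 losses were clearly above kept peaks only in the highest part (26.04% against 8.67%).

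RAD21 gains and losses also lay more often than kept peaks at sites with no PDS5A peak in either list. This held for 1324 RAD21 gains (33.5%) and 624 RAD21 losses (30.0%), against 8.59% of kept treated RAD21 peaks. Among all 10864 treated RAD21 peaks these were 1324 gained and 593 kept ones, and among all 8993 untreated ones 624 lost and 596 kept ones. The share fell with strength. From the lowest to the highest part it was 39.41%, 29.05% and 14.85% of gains against 17.72%, 10.62% and 3.20% of kept treated peaks. For losses it was 36.64%, 25.63% and 8.43% against 16.11%, 9.23% and 3.25% of kept untreated peaks. PDS5A was kept at 35.3% of RAD21 gains and 35.7% of RAD21 losses, against 66.9% of kept RAD21 peaks.

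**Figure D3:**
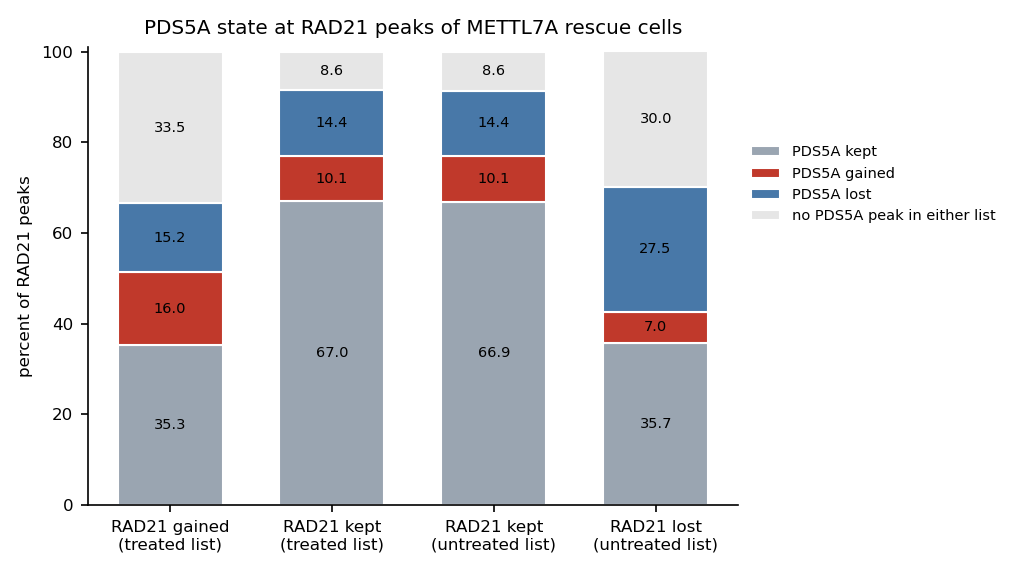
State of PDS5A (colours, percent of RAD21 peaks on the y axis) at RAD21 peaks that were gained, kept or lost under osimertinib. A RAD21 peak on PDS5A peaks of 2 states is counted under both, so bars need not add to exactly 100. PDS5A losses make up 27.5% of the lost RAD21 bar and 15.2% of the gained bar, and PDS5A gains 6.96% and 16.0%.

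The strongest sites where both proteins changed again showed 1 weak replicate in the condition without a passing peak. At chr3:177076776-177078586, gained for both, PDS5A had 6.06 and 45.6 untreated and 68.4 and 43.6 treated. At chr2:37896541-37900274, also gained for both, RAD21 had 6.21 and 115 untreated and 106 and 79.0 treated, and PDS5A had 48.5 and 6.53 untreated and 64.5 and 29.8 treated. An IgG peak was deposited there in treated cells. The weak untreated replicate was thus the first for RAD21 and the second for PDS5A at 1 site. At chr5:148493865-148494742 RAD21 had 108 and 5.96 untreated and 93.7 and 73.3 treated, and PDS5A had 78.7 and 7.93 untreated and 131 and 55.6 treated, so the second untreated replicate was the weak one for both.

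Sites lost for both turned on the second treated replicate. At chr2:223182754-223184905 PDS5A had 152 and 176 untreated and 164 and 4.89 treated, next to the RAD21 values given above. At chr17:8286242-8287846 RAD21 had 112 and 110.4 untreated and 170 and 8.36 treated, and PDS5A had 89.1 and 168 at the stronger of 2 untreated peaks and 156 and 10.2 treated. At chr1:116087866-116089219 RAD21 had 144 and 102 untreated and 142 and 4.42 treated, and PDS5A had 171 and 155 untreated and 263 and 6.16 treated. An IgG peak was deposited at this last site in treated cells. In all 3 sites the first treated replicate of PDS5A was within or above the untreated range.

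Most of the strongest sites that went opposite ways had the same form. At chr3:105084307-105089088 RAD21 rose into the list from 7.90 and 86.6 to 178 and 83.8, while PDS5A went from 52.4 and 58.2 to 170 and 5.05, with an IgG peak deposited in untreated cells. At chr7:155597545-155598987 RAD21 went from 199 and 8.98 to 195 and 75.2 and PDS5A from 137 and 112 to 198 and 4.83. At chr12:10825169-10827303, a RAD21 loss and PDS5A gain, RAD21 went from 224 and 128 to 4.28 and 208 and PDS5A from 74.4 and 7.50 to 150.2 and 102. At each of these 3 sites the RAD21 values of the conditions overlapped. Another site, on chromosome 8, counted as a RAD21 gain and PDS5A loss, with RAD21 going from 103 and 5.82 to 127 and 98.0 and PDS5A from 30.1 and 55.6 to 70.5 and 5.95. At a second chromosome 8 site RAD21 was lower in both treated replicates, with 168 and 195 untreated and 87.3 and 3.86 treated, so the conditions did not overlap. The first treated value was still above the median of the IDR-passing peaks (33.5). This site held 2 PDS5A peaks in each condition, and the stronger went from 79.1 and 37.7 to 85.1 and 63.5. An IgG peak was deposited there in untreated cells.

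Peaks near the IDR limit changed more often than strong ones, which the rule itself favours, since replicate values decide whether a peak meets the limit. Ranked by the lower of the 2 replicate values within each list and divided into 3 equal parts, RAD21 peaks were lost in 41.0%, 19.8% and 8.71% of cases from the lowest to the highest part, and gained in 61.8%, 36.3% and 11.2%. PDS5A peaks were lost in 61.9%, 32.9% and 12.4% and gained in 36.5%, 19.3% and 8.56%. Peaks that carried the other protein in the same condition changed less. RAD21 was lost at 1316 of 6935 untreated peaks with PDS5A (18.98%) and at 37.2% of those without, and gained at 27.6% of treated peaks with PDS5A and at 54.8% of those without. PDS5A was lost at 22.6% of peaks with RAD21 and at 48.9% of those without, and gained at 18.2% and 27.6%.

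The difference remained within each part of the strength range for RAD21 losses, RAD21 gains and PDS5A losses. Among the strongest PDS5A peaks 10.3% (interval 9.28 to 11.4) were lost with RAD21 and 17.3% (interval 15.4 to 19.4) without, and among the strongest RAD21 peaks 7.42% (interval 6.48 to 8.48) were lost with PDS5A and 18.3% (interval 14.6 to 22.6) without. For PDS5A gains the intervals overlapped in the middle part (18.9% with and 20.2% without) and in the highest part (8.09% and 10.3%).

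**Figure D4:**
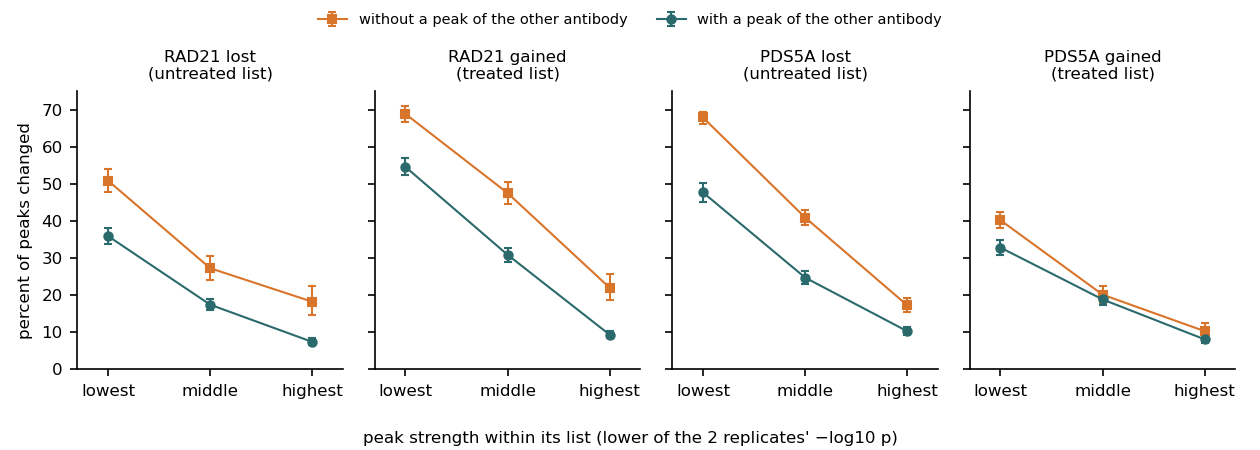
Percent of peaks that changed (y axis) in the lowest, middle and highest part of each list by strength, for peaks with (green circles) and without (orange squares) a peak of the other protein in the same condition; bars are 95% Wilson intervals. Every line falls with strength, and the PDS5A gained lines meet in the middle part at 18.9% and 20.2%.

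The order of sites within a condition was compared at the 16365 sites that had deposited peaks in all 4 lists, of 38663 sites in all. Peak values were ranked within each replicate over these same sites. RAD21 ranked higher in both treated replicates than in both untreated ones at 2980 sites, which is 18.2 percent, and lower at 2890, which is 17.7 percent. PDS5A ranked higher at 2972 sites, which is 18.2 percent, and lower at 3006, which is 18.4 percent. Ranks over the same sites balance by construction, so these counts say nothing of an overall rise or fall. Of the sites where RAD21 ranked higher, PDS5A ranked higher at 925 (31.0%, interval 29.4 to 32.7) and lower at 277 (9.30%, interval 8.31 to 10.4). Of the sites where RAD21 ranked lower, PDS5A ranked lower at 960 (33.2%, interval 31.5 to 35.0) and higher at 242 (8.37%, interval 7.42 to 9.44).

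The shifts of the 2 proteins correlated more between replicates of like column order than between those of unlike order. The replicate columns carry no sample name, so whether the first RAD21 and first PDS5A replicates belong together is not known. The shift of RAD21 in the first replicates correlated with that of PDS5A in the first replicates at 0.361, and the second with the second at 0.133, over 16365 sites. Within a replicate all these sites share a library, and both proteins share the width and sequence of a site. The first RAD21 shift against the second PDS5A shift gave 0.0430, and the reverse gave 0.0637. Within 1 protein the shift of the first replicates and that of the second replicates correlated at 0.0698 for RAD21 and 0.0680 for PDS5A. The Spearman correlation between the 2 replicates of a condition was 0.620 and 0.679 for RAD21 (untreated, treated), while the first treated and second untreated RAD21 replicates correlated at 0.696. The 4 pairs across conditions ranged from 0.553 to 0.696 for RAD21, on both sides of the replicate pairs. For PDS5A the replicate correlations were 0.639 and 0.675, and the first replicates of both conditions correlated at 0.714.

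Lost RAD21 peaks carried H3K27Ac less often than kept ones. It met the IDR limit in untreated cells at 49.8% of kept RAD21 peaks and at 35.0% of lost ones (interval 33.0 to 37.0), and in treated cells at 48.4% of kept and 45.1% of gained RAD21 peaks (interval 43.5 to 46.6 for gained). PDS5A followed the same order for losses, with 38.2% of kept and 31.4% of lost untreated peaks, but gained PDS5A peaks carried it more often than kept ones in treated cells (43.7% against 37.0%). Among RAD21 peaks with H3K27Ac, the acetylation was lost more often where RAD21 was lost than where it was kept. Of untreated RAD21 peaks with H3K27Ac, 226 of 728 lost peaks (31.0%, interval 27.8 to 34.5) and 627 of 3444 kept peaks (18.2%, interval 17.0 to 19.5) were on a lost H3K27Ac peak. Of treated RAD21 peaks with H3K27Ac, 376 of 1784 gained peaks (21.1%, interval 19.3 to 23.0) and 540 of 3346 kept peaks (16.1%, interval 14.9 to 17.4) were on a gained one. For PDS5A these shares were 27.4% of lost and 18.7% of kept peaks, and 19.8% of gained and 15.9% of kept peaks. Over all RAD21 peaks with H3K27Ac, 20.45% were on a lost and 17.86% on a gained H3K27Ac peak. Over the whole H3K27Ac lists 28.6 percent of treated peaks were gained and 35.4 percent of untreated peaks were lost. The shares at changed RAD21 and PDS5A peaks were thus below those of the whole H3K27Ac lists. Lost RAD21 peaks were also weaker and narrower than kept untreated ones (median lower −log10 p 15.78 against 22.43, width 835.5 against 1070 bp). The H3K27Ac shares were not split by strength. IgG peaks were deposited under 11.4% of kept, 5.52% of lost and 7.40% of gained RAD21 peaks, so kept sites overlapped them most often, and their part in the result was not tested.

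Rescue sites were next looked up in the lists of the other genotypes under the same antibody. RAD21 peaks gained in treated rescue cells were in the treated wild-type list in 64.0% of cases (interval 62.5 to 65.5) and in the untreated wild-type list in 7.35%. RAD21 peaks lost in rescue cells were in the treated wild-type list nearly as often, at 63.5% (interval 61.4 to 65.5), and in the untreated one at 12.2%. Kept RAD21 peaks were there at 85.7%, so both kinds of change lay below kept peaks and their intervals overlapped each other. For RAD21 changes without a deposited counterpart, 63.3% of gains and 55.5% of losses were in the treated wild-type list. PDS5A gains and losses were apart, at 49.9% (interval 47.9 to 51.9) and 38.1% (interval 36.7 to 39.5) in treated wild-type cells, where 73.0% of kept PDS5A peaks were found. In knockout cells under osimertinib, 10.6% of RAD21 gains, 14.8% of RAD21 losses and 49.2% of kept RAD21 peaks were found. The wild-type lists grew from 3635 to 16340 RAD21 peaks, and the knockout lists went from 5283 to 4293, so these shares also move with list length. The percentage of treated peaks gained was 80.5 for RAD21 and 88 for PDS5A in wild-type cells and 30.4 and 81.4 in knockout cells.

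The balance of peaks along the genome moved together for both proteins. In 492 windows of 5 Mb with at least 20 deposited peaks of each protein over both conditions, the share of RAD21 peaks under osimertinib over the untreated share was compared on the log2 scale after adding 2 peaks to each count. The change in RAD21 share correlated with that in PDS5A share (Spearman 0.600), with both up in 139 windows, both down in 222 and opposite in 131. It also moved with H3K27Ac (Spearman 0.516 for RAD21 and 0.648 for PDS5A), and neighbouring windows and base composition are shared by all 3 measures. The change in RAD21 share in wild-type cells ran against that in rescue cells (Spearman -0.27), and in knockout cells it ran with it (0.250).

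The largest rise for RAD21 was in chr9:135000001-140000000, from 70 to 121 deposited peaks, where PDS5A went from 111 to 119 and H3K27Ac from 102 to 153. Next came chr14:105000001-110000000, with RAD21 from 33 to 56, and chr11:1-5000000, from 68 to 110. The largest RAD21 falls were in chr13:105000001-110000000, from 25 to 15, with PDS5A from 28 to 14, and chr5:5000001-10000000, from 21 to 13, after chr18:60000001-65000000, which went from 21 to 11. PDS5A fell most in chr14:80000001-85000000, from 27 to 11, and chr4:155000001-160000000, from 41 to 18, while RAD21 went from 15 to 12 and from 23 to 18 there.

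**Figure D5:**
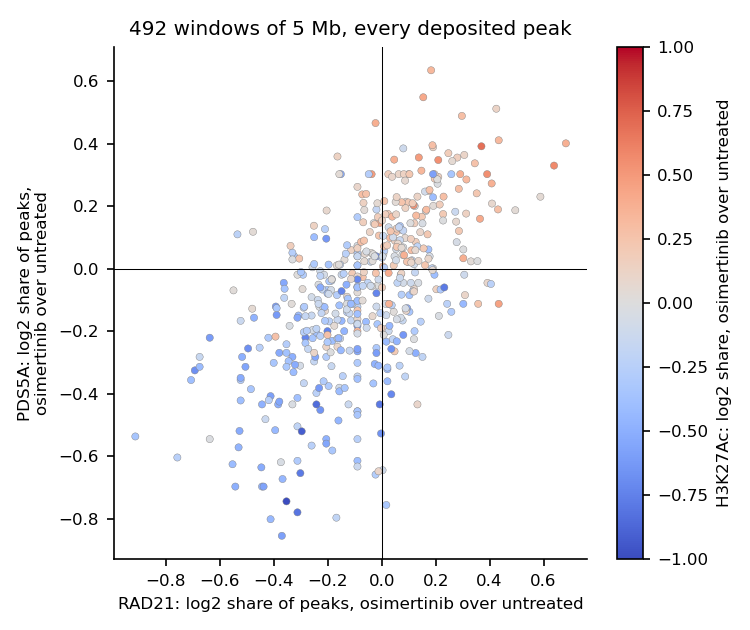
Change in the share of RAD21 peaks (x axis) and PDS5A peaks (y axis) under osimertinib on the log2 scale in 492 windows of 5 Mb, coloured by the change in the share of H3K27Ac peaks. Points run from lower left to upper right (Spearman 0.600), and 131 windows lie in the quadrants where RAD21 and PDS5A went opposite ways.

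Among whole chromosomes, 21 stood apart for RAD21. Its RAD21 peaks went from 40 to 87, with 59.8% of treated peaks gained (interval 49.3 to 69.4) against 36.4 percent over all chromosomes, and 12 of the 52 gained peaks had no deposited counterpart. PDS5A on chromosome 21 went from 72 to 81, with 45.7% gained (interval 35.3 to 56.5), and H3K27Ac from 88 to 114. Deposited RAD21 peaks there went from 193 to 248. On chromosome 18, PDS5A lost 51.0% of its 145 untreated peaks (interval 43.0 to 59.0), and on chromosome 1 RAD21 lost 16.9% of 991.

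For each list, replicate values were looked up for the peak just inside and the peak just outside the IDR limit. The last RAD21 peak inside it in untreated cells had −log10 p of 22.8 and 10.6, and the first one outside had 17.5 and 16.6. For PDS5A in treated cells these were 20.6 and 13.5 inside and 22.7 and 18.8 outside. Between 1173 and 1938 peaks of each list lay at an IDR from 0.04 to 0.06.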

How the data were processed

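RAD21, PDS5A, H3K27Ac and IgG CUT&RUN peak lists were analysed, 1 list for each antibody and condition. Per the submitters' processing notes, the authors worked on the GRCh37 build, with MACS2 2.2.7.1 and Bowtie2 2.4.2 among their tools, besides bedtools 2.30, SAMtools 1.16, deepTools 3.5.1, FastQC and Trimmomatic. The MACS2 threshold, its control and the IDR version are not given in the sources used here. The deposited values are the authors' −log10 p of each peak in each replicate and its −log10 global IDR, and the replicate columns carry no sample name. Read depth per library is unknown here, so intervals cover the counting of peaks only.

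Peaks on 22 autosomes at a global IDR of 0.05 were compared by 1 bp overlap in Python 3.11.15 with numpy 2.4.6, pandas 2.3.3 and scipy 1.17.1, and plotted with matplotlib 3.10.9. The overlap code was tested on simulated lists. Conditions were described and not tested, since each list joins both replicates and the replicate values are p-values of libraries of unknown depth, used here to rank peaks. Named sites were, for each antibody and direction, the 3 with the highest lower replicate value, the 3 highest with no deposited counterpart, and 3 for each pairing of RAD21 and PDS5A change; the positions of 2 sites on chromosome 8 are not given here. A GRCh37 genome and annotation were not used here, so genes and sequences are not given. The members, lists and alternatives were chosen with earlier results of these data known.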

Additional observations from a re-analysis of the deposited data

Results flagged for a closer look

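The direction of the osimertinib difference in peak number was not the same in the 3 genotypes. RAD21 peaks changed by a ratio of 1.21 in rescue cells, 4.50 in wild-type cells and 0.813 in knockout cells, treated over untreated. PDS5A peaks changed by a ratio of 0.818 in rescue cells, 7.12 in wild-type cells and 4.46 in knockout cells, so rescue cells alone had fewer PDS5A peaks under treatment. Each ratio rests on 1 list per condition, so the differences between genotypes were not tested. The untreated wild-type and knockout lists were shorter and their replicates less alike, with Spearman correlations between replicates of 0.557 and 0.599 for RAD21 and 0.420 and 0.391 for PDS5A, against 0.642 and 0.670 in untreated rescue cells; the part of this in the ratios was not tested.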

How the results depend on the processing

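No paired analysis was possible because each list joins both replicates and the replicate columns carry no sample name. Peak ratios were computed with every deposited peak, at an IDR of 0.01 and without peaks on IgG peaks, and they did not cross 1. The other alternatives gave no ratio. With every deposited peak, the RAD21 ratio was 1.06, RAD21 kept 80.9% and gained 24.4%, PDS5A kept 71.3% and gained 12.6%, and RAD21 gains and losses on a like PDS5A change were 13.1% and 32.5%. At an IDR of 0.01 the ratios were 1.39 and 0.892, RAD21 kept 78.2% and gained 43.8%, PDS5A gained 27.6%, and the shared gains and losses were 17.5% and 21.5%. Without peaks on IgG peaks, RAD21 kept 75.6% and gained 37.5%, and PDS5A kept 63.0%. With lists of equal length, RAD21 kept 70.0% and gained 30.2%, PDS5A kept 71.9% and gained 28.1%, and shared gains and losses were 23.0% and 18.8%, so the order of those shares turned around. An overlap of 50% of the shorter peak moved no value beyond its interval. Ranking deposited peaks by 1 replicate's value alone, at the main list lengths, gave 75.9% to 76.2% RAD21 kept and 37.0% to 37.3% RAD21 gained. It gave 64.1% to 65.5% PDS5A kept, 20.2% to 21.6% PDS5A gained, 14.7% to 19.8% shared gains and 26.1% to 31.8% shared losses. Those peaks still came from lists that join both replicates, so neither replicate was left out of peak calling. The fixed lengths also limit how far these shares can move. Of 2 definitions chosen after seeing the data, counting any deposited counterpart as kept gave 95.2% RAD21 kept, 5.24% RAD21 gained, 91.5% PDS5A kept, 1.29% PDS5A gained, 1.58% shared gains and 10.1% shared losses. Counting counterparts with 1 strong replicate as kept gave 82.3%, 31.1%, 69.9%, 15.1%, 13.6% and 26.9% in the same order. The causes were not tested.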
